A study of Mus musculus with 3 samples.

Results

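BMAL1 binding outside genes but near them was examined in the mouse liver. The peaks were called in the BMAL1 immunoprecipitate and overlapped no peak called in the CLK (CLOCK) immunoprecipitate. The CLK list held 759 peaks and the BMAL1 list 1578. The paper displayed and averaged CLK signal at its BMAL1 only peaks. That signal was not measured here, so a missing CLK peak does not show that CLK was absent. A peak belonged to this class when the deposited annotation called it BMAL1 only, its centre lay outside the transcript listed for it, and its centre was more than 1000 bp and at most 50000 bp from the start site of that transcript. There were 340 such peaks among the 1368 BMAL1 only peaks and the 2127 annotated peaks of the whole series, and all of them were found in the list of 1578 BMAL1 peaks. They were chosen by measured values, since a peak had to pass the BMAL1 threshold over Input and had to miss a CLK peak. Their BMAL1 scores, fold enrichments and tag counts are therefore given as a description, with no test. Where peaks are split by score further on, the test is of the DNA sequence at the summit, which the rule did not use.

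Chromatin came from a single liver extract of adult C57BL/6 origin (3 to 6 months). The paper's methods describe its C57BL/6 mice as male and wild-type. The mice had lived for at least 2 weeks under alternating 12 h periods of light and darkness. Liver was collected at ZT8, when the lights had been on for 8 h. Cross-linked nuclei were sonicated and precipitated with an antibody against BMAL1 or one against CLK, and the Input library was made from the same liver extract without an antibody. Each of the 3 libraries stood alone, with no replicate, so tests compare peaks with one another and not animals or conditions. The mapped tags numbered 28920754 for BMAL1, 37371047 for CLK and 18846303 for Input. The labels name no genotype other than the strain, and the extract is whole liver with all its cell types.

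BMAL1 is a basic helix-loop-helix PAS transcription factor that binds DNA as a dimer, with CLK or with its relative NPAS2 as the partner. The dimer recognises the E-box, the hexamer CACGTG, and drives the genes of its own repressors, the Per and Cry families, as well as many output genes of the liver. Sites outside promoters can act as enhancers and reach a start site by looping of the chromatin. An assignment to the nearest start site is therefore a naming convention and not a measured link.

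The peaks of highest score show what the strongest sites of this class look like. They lie outside the listed transcript, though the summits near uc008vpo.1, Igsf8 and AK027991 fall in GENCODE introns, as given below. Of the top 12, 11 follow, read from the NCBIM37 (mm9) reference on the plus strand, 100 bp to either side of the summit. The remaining one, near Zfp692-ps, stands in a second set. Each line gives the listed gene, which is where the peak was assigned, and the position. Capitals mark CACGTG.
Rgs16, chr1:155544812-155545012: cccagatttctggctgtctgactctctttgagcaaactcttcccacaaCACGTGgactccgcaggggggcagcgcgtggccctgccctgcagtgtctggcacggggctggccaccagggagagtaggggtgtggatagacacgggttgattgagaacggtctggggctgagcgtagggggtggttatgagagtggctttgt
Slc7a10, chr7:35954363-35954563: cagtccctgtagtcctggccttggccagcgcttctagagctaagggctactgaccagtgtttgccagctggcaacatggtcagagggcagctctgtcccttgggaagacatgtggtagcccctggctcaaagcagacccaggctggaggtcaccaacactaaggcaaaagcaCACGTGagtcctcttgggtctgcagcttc
uc008vpo.1, chr4:141510856-141511056: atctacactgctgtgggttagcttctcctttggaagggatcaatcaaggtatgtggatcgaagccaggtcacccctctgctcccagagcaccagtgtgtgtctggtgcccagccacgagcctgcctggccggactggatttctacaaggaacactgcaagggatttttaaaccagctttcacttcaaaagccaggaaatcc
Igsf8, chr1:174240232-174240432: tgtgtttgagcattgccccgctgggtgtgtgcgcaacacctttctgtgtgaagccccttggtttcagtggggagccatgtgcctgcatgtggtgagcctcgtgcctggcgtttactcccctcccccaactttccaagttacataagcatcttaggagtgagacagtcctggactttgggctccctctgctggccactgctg
AK027991, chr2:167829102-167829302: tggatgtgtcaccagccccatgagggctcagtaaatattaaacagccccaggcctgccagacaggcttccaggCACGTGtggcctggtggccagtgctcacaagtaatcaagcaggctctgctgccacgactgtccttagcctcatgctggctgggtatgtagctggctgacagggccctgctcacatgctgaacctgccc
Thrsp, chr7:104572389-104572589: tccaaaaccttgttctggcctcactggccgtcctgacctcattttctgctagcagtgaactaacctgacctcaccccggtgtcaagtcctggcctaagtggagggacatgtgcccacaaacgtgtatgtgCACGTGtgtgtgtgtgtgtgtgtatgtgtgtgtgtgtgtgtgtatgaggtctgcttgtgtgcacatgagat
Gjb2, chr14:57726028-57726228: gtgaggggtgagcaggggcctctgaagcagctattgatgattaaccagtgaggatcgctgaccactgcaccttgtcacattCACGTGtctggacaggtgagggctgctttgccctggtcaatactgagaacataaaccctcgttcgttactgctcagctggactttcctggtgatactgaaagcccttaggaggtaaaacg
Zfp169, chr13:48642086-48642286: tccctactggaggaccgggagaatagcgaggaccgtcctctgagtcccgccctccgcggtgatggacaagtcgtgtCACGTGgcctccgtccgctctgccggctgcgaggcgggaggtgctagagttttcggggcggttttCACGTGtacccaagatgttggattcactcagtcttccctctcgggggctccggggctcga
AK049871, chr7:77491170-77491370: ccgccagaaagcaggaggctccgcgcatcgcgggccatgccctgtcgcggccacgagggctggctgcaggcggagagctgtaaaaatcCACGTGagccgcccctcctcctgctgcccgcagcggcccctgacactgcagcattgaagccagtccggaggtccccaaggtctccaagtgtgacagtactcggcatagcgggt
Adcy6, chr15:98447385-98447585: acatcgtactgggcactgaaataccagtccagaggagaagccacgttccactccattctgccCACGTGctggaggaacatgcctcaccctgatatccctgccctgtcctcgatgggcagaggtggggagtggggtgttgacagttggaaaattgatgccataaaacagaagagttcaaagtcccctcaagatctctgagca
Azin1, chr15:38498262-38498462: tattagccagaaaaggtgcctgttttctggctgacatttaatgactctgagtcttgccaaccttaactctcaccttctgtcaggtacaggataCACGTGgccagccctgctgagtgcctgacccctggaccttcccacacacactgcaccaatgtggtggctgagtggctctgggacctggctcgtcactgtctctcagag
In 9 of these 11 windows the E-box was present, at a distance from the summit that ran from 4.5 bp near Azin1 to 74.5 bp near Slc7a10. The Zfp169 window held 2 copies. No CACGTG was found in the windows near uc008vpo.1 and Igsf8, and the nearest copy to the uc008vpo.1 summit was 225.5 bp away.

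The strongest BMAL1 only intergenic peak had a score of 291.39 and was assigned to Rgs16, a GTPase-activating protein that shortens signalling from G protein-coupled receptors. The score is the negative log10 of the p-value that MACS gave for BMAL1 over Input, multiplied by 10, so the cutoff stands at 50. This peak lay 42655 bp upstream of the Rgs16 start site, spanned chr1:155544441-155545256, and held 89 tags at 16.11-fold enrichment over the local Input background. The start site of a related gene, Rgs8, was nearer in GENCODE M1, at 30293 bp. The second peak had a score of 215.83 and 11.41-fold enrichment and lay 17019 bp upstream of Slc7a10, which encodes a transporter of small neutral amino acids. Near Thrsp, a gene of fatty acid synthesis, the score was 163.05 and the enrichment 13.90-fold, 6465 bp upstream of the start. Near Gjb2, which encodes a gap junction connexin, the score was 151.19 and the enrichment 13.77-fold, only 2563 bp upstream. Rgs16, Thrsp and Gjb2 were also the 3 highest of the 340 peaks by fold enrichment. Further down the 12, the peak near Zfp169 scored 135.14, near Adcy6 (an adenylyl cyclase) 133.33, and near Azin1 (an inhibitor of antizyme that keeps polyamine synthesis going) 129.96. The Zfp169 peak was nearer to a microRNA, Mirlet7a-1 of the let-7 family, whose start site was 8545 bp away, than to Zfp169 at 33370 bp. The peak listed for AK049871, with a score of 134.85, had as its nearest GENCODE gene Nr2f2, a nuclear receptor, at 14209 bp. 

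The other peaks were far weaker. The median score of the 340 was 57.22, with quartiles of 52.705 and 69.2025, and the median fold enrichment was 6.76, with quartiles of 6.14 and 7.97. The median peak held 22 tags over 458.5 bp. Of the 340, 198 (58.2%) scored below 60, close to the cutoff. A score of at least 100 was reached by 26 peaks (7.65%, exact 95% interval 5.06 to 11), where 14.8% of all BMAL1 peaks reached it, and an FDR of at most 5% by 136 peaks (40%), where 47.7% of all BMAL1 peaks did. Among BMAL1 only peaks of every position the shares were 7.53% and 41.0%, close to those of this class. Intervals of shares are exact Clopper-Pearson intervals, intervals of differences between shares are Newcombe intervals, and both cover counting error only. By the median score the class stood beside BMAL1 only peaks in gene bodies (57.29, n = 496). It was above those outside the listed transcript and over 50 kb from its start site (55.82, n = 309). It was below those within 1000 bp of a start site, here called promoter peaks (69.34, n = 223). The 49 intergenic peaks at the distances of this class that overlapped a CLK peak had a median BMAL1 score of 107.4 and a median enrichment of 9.75-fold.

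**Figure D1:**
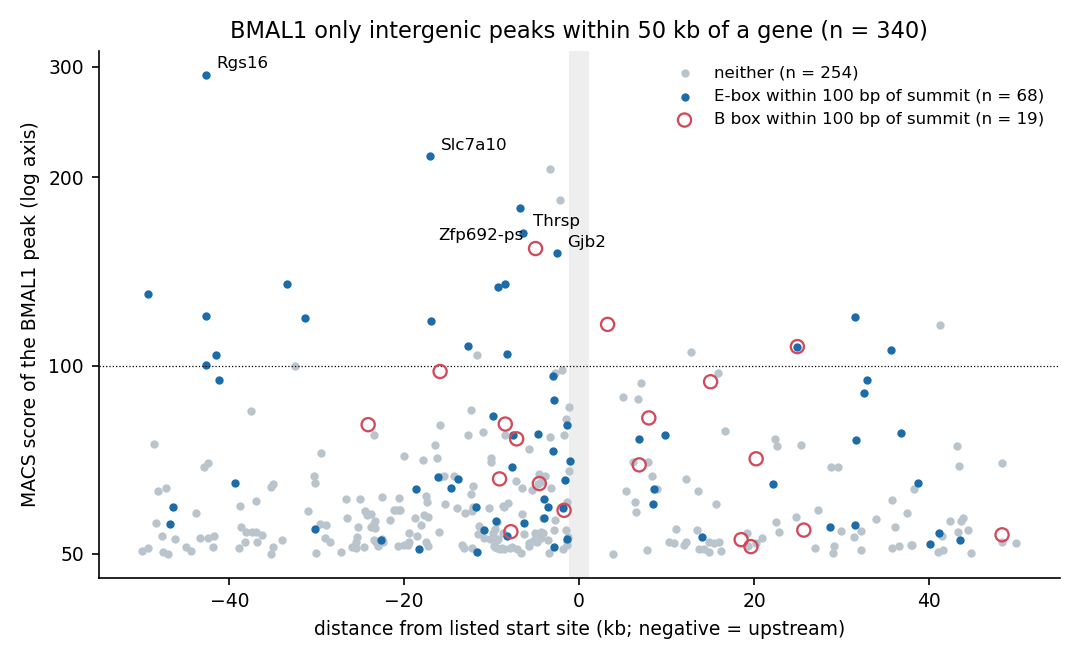
Each point is one of the 340 BMAL1 only intergenic peaks, placed by its distance from the listed start site (x axis, kb, negative upstream, with the grey band at less than 1 kb) and its MACS score (y axis, log scale, dotted line at 100). Filled blue points have an E-box within 100 bp of the summit (68 peaks), red circles mark the B box letters of tRNA genes (19 peaks), and 198 peaks score below 60.

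In position, 237 of the 340 peaks (69.7%) lay upstream of the listed start site and 103 beyond the end of the transcript. The median distance was 17153.5 bp, and 111 peaks were within 10 kb. The distance limits cut through a continuous range. Just inside the lower limit lay the peaks of Stard4 (1030 bp, score 70.26) and Leng9 (1147 bp, score 85.79), and just outside it those of Smek2 (968 bp, score 64.97) and Agbl5 (906 bp, score 66.05). Just inside the upper limit lay those of DQ547751 (49954 bp, score 52.03) and Pik3c3 (49942 bp, score 50.51), and just outside it those of Spata7 (50022 bp, score 75.25) and AK030468 (50269 bp, score 57.91). 

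The label was checked against GENCODE M1, an annotation the deposited table did not use. The summit was intergenic there too for 282 peaks (82.9%, interval 78.5 to 86.8), while 44 summits fell in an intron and 14 in an exon. Among the strongest, the summit near uc008vpo.1 (score 205.98, 115 tags) lay in an intron of Fhad1, 847 bp from a Fhad1 start site, the Igsf8 summit in an intron of Igsf8, and the AK027991 summit (score 178.40) in an intron of Fam65c. For 144 peaks (42.4%) GENCODE placed a start site more than 200 bp closer than the listed one. Counted apart from that, 20 peaks (5.88%) had some GENCODE start site within 1000 bp, so that by this annotation they are promoter peaks. Examples, chosen after their values were seen, are a peak listed 41256 bp beyond the start of Usp36, a ubiquitin protease gene, that lay 102 bp from a start of Cyth1 (score 116.22), and one listed 42675 bp upstream of Rab3gap2 that lay 147 bp from another start of the same gene (score 100.17). A peak listed for Ppid lay 45 bp from Fnip2, one listed for AK079713 lay 36 bp from Ccdc88c, and one listed for uc008szv.1 lay 117 bp from Susd1. Of those 20 peaks 9 held an E-box (45.0%, interval 23.1 to 68.5), against 59 of the other 320 (18.4%, interval 14.3 to 23.1). 

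An E-box lay within 100 bp of the summit in 68 of the 340 BMAL1 only intergenic peaks (20%, interval 15.9 to 24.7). In the flanks of the same peaks, from 400 to 500 bp on either side and of the same total length but for 1 base, it was found in 8 (2.35%). The E-box was at the summit alone in 67 peaks and in the flank alone in 7 (two-sided exact McNemar test, p = 2.1e-13). The copies sat close to the summit. The median distance of the nearest copy was 26 bp, with quartiles of 14.25 and 40.25 bp, and in 57 of the 68 it was at most 50 bp. In bins of 50 bp, density was 2 and 1.71 E-boxes per kb in the bins on either side of the summit, 0.412 and 0.353 in the next bins outward, and at most 0.353 in every bin further out to 500 bp. Of the 68 peaks, 61 had 1 copy, 6 had 2 and 1 had 3 or more.

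**Figure D2:**
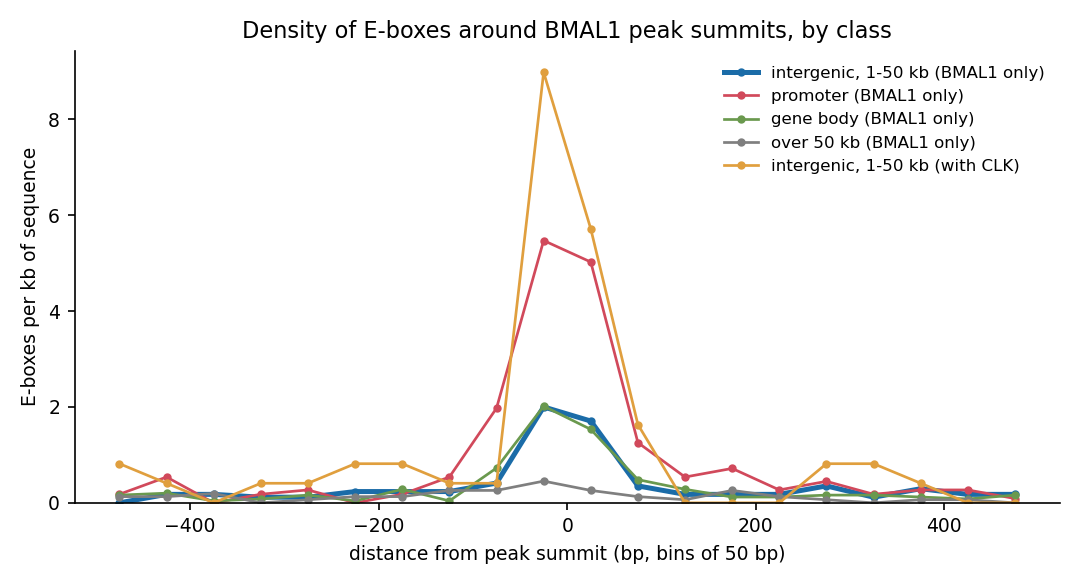
Number of E-boxes per kb of sequence (y axis) in bins of 50 bp by distance from the peak summit (x axis, bp) for the 5 classes of BMAL1 peak. The line for BMAL1 only intergenic peaks rises to 2 per kb beside the summit, follows that of gene body peaks and is below those of promoter peaks and of intergenic peaks with CLK there.

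With 1 letter on either side, the commonest form of the 76 E-boxes in these windows, each read on the strand that comes first in the alphabet, was ACACGTGA with 17 copies, followed by CCACGTGA and CCACGTGC with 10 each. A second hexamer with at most 1 mismatch to CACGTG followed or preceded the E-box at a gap of 6 bp in 6 of the 68 peaks and at a gap of 7 bp in 1. The 6 peaks with the gap of 6 bp included Thrsp and Gjb2, both among the 12 of highest score. At the other 19 gaps from 0 to 20 bp the number of peaks ranged from 0 to 5 with a median of 1, so the count at 6 bp was the highest by 1 peak. In the Thrsp window the second hexamer was aacgtg, which came before the E-box. The long run of mostly alternating t and g in that window lay after the E-box.

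The share of peaks with an E-box differed sharply between positions relative to genes. It was 52.9% of 223 promoter peaks, 20.6% of 496 gene body peaks and 4.21% of 309 peaks over 50 kb from the listed start site. Of the 49 intergenic peaks at the distances of this class that overlapped a CLK peak, it was 61.2%. The BMAL1 only intergenic peaks within 50 kb were below promoter peaks by a difference of -32.9 percentage points (95% interval -40.5 to -24.9, two-sided Fisher's exact test adjusted over 4 comparisons by Benjamini-Hochberg, p = 2.6e-15) and below the intergenic peaks with CLK by -41.2 points (interval -54.2 to -26.5, Fisher's exact p = 1.2e-08). They were 15.8 points above the peaks over 50 kb away (interval 11 to 20.7, Fisher's exact p = 7.7e-10). No difference from gene body peaks was detected, with -0.565 points and an interval from -6.0 to 5.09 (Fisher's exact p = 0.86). These tests compare peaks of one library. 

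The E-box share rose with the strength of the peak. Of the 26 BMAL1 only intergenic peaks with a score of at least 100, 19 held an E-box (73.1%, interval 52.2 to 88.4), against 49 of the 314 below 100 (15.6%, interval 11.8 to 20.1), a difference of 57.5 points (interval 37.8 to 71.2, p = 1.2e-09 by a two-sided Fisher's exact test). In steps, the share was 11.1% of the 198 peaks with scores from 50 to 60, 21.7% of the 92 from 60 to 80 and 29.2% of the 24 from 80 to 100. Promoter peaks began far higher, with 42% of 69 peaks from 50 to 60, and reached 61.2% of 49 peaks at 100 and above. Among peaks of at least 100 the class was therefore 11.9 points above promoter peaks instead of below them, and 15.9 points above intergenic peaks with CLK (16 of 28), neither of which passed the test (Fisher's exact, adjusted p = 0.44 for both). Among peaks below 100, a restriction chosen after the values had been seen, the class was still below promoter peaks, by -35.0 points (Fisher's exact, adjusted p = 2.3e-15). The peaks over 50 kb away stayed at 3.56% and 2.78% in the lower score steps (225 and 72 peaks), with 3 of 6 at 100 and above.

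Differences by distance from the start site were smaller. The share was 28.6% of 49 peaks from 1 to 5 kb, 24.2% of 62 from 5 to 10 kb, 15.4% of 78 from 10 to 20 kb and 17.9% of 151 from 20 to 50 kb. Within 10 kb it was 26.1% of 111 peaks and beyond it 17.0% of 229, a difference of 9.10 points that did not pass (p = 0.060 by Fisher's exact test, two-sided). Peaks within 10 kb were also stronger, with a median score of 60.61 against 56.07. Among the peaks that scored below 100, a restriction likewise chosen after the values had been seen, the shares were 22.8% of 101 and 12.2% of 213, and the difference of 10.6 points passed (Fisher's exact p = 0.020). Peaks upstream of the start site and beyond the transcript end had like shares, 20.7% of 237 and 18.4% of 103.

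**Figure D3:**
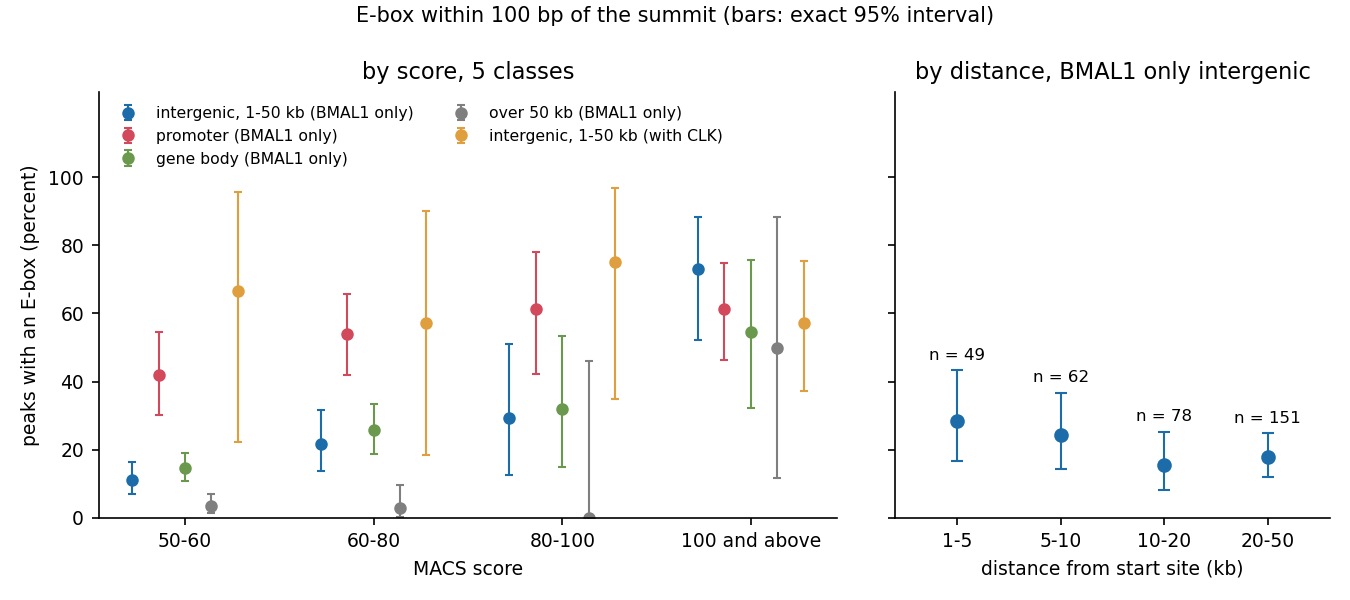
Percent of peaks with an E-box within 100 bp of the summit (y axis) by MACS score in the 5 classes of BMAL1 peak (left) and by distance from the listed start site in the BMAL1 only intergenic class (right), with exact 95% intervals as bars. The blue points rise from 11.1% to 73.1% with the score while promoter peaks start at 42%, and the intervals of the 4 distance bins overlap.

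The exact hexamer was absent from the summit windows of the other 272 peaks. With at most 1 mismatch allowed, 238 of all 340 peaks (70.0%) had a match, the 68 with the exact hexamer included, beside 44.1% in their flanks. The shares that follow are also of all 340. The E-prime box CACGTT, a known variant of BMAL1 target sites, was found in 28 summit windows (8.24%) and 10 flanks (2.94%), and in 7.67% of the windows of all 1578 BMAL1 peaks. The letters of other factors were searched on both strands in the same windows, with no test. AGGTCA, the half-site of ROR and of many nuclear receptors, was found in 13.5% of summits and 8.53% of flanks (15.9% of all BMAL1 summits). TGTTTAC, as bound by FOXA factors, was found in 3.53% and 2.06% (3.30% of all), TGANTCA of the AP-1 family in 6.18% and 3.53% (6.02% of all), TTATGTAA of the D-box in 2.06% and 1.47% (2.09% of all), and CAAAGTCCA of HNF4 in 4 summits and 1 flank (0.760% of all). The CEBP palindrome TTGCGCAA was in 0 of 340 summits, which by the limit of 3 counts allows a share of up to 0.882% (exact interval up to 1.08%). Among all 1578 BMAL1 summits it was in 1 (0.063%), so these letters were rare in the whole list too. The GC box GGGCGG, a promoter element, was in 7.35% of these summits but in 58.3% of promoter peaks and 17.0% of all. Base composition differed in the same way, with a median of 51.2% G and C and 3 CpG in the 201 bp of the window, against 65.7% and 17 CpG at promoter peaks. A match is a description of letters and does not show which factor bound.

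A second sequence feature was seen in 2 of the 7 peaks that scored at least 100 without an E-box. The peak near Zfp692-ps, a zinc finger pseudogene, had a score of 153.76 and 83 tags and no CACGTG, but held GGTTCGA, the first 7 letters of the B box of tRNA genes, and these 7 letters alone were searched on both strands. The B box is an element inside tRNA genes where the transcription factor TFIIIC binds for RNA polymerase III. These letters were chosen as a motif after the values of the peaks were seen. Their counts, and the scores of the peaks that held them, are therefore a description with no test. The 3 peaks of highest score that held them follow, in the same reference, strand and length as above. Capitals mark GGTTCGA, or its reverse complement where the letters are on the minus strand.
Zfp692-ps, chr11:58115969-58116169: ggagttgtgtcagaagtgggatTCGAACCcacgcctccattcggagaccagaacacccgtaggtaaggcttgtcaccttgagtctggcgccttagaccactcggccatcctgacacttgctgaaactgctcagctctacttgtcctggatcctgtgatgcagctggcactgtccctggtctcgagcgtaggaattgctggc
2310047M10Rik, chr11:68876510-68876710: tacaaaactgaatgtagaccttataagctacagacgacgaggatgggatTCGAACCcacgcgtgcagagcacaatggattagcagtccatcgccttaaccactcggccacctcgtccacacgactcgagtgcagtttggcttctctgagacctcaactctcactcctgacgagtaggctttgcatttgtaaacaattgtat
Olfr1423, chr19:12086368-12086568: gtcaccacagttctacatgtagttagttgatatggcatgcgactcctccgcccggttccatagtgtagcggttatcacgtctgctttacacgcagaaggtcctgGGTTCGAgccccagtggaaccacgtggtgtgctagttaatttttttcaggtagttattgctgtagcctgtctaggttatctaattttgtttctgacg
The B box letters lay within 100 bp of the summit in 19 of the 340 BMAL1 only intergenic peaks (5.59%, interval 3.40 to 8.59) and in the flank of 5. They were in 9 of 223 promoter peaks (4.04%, interval 1.86 to 7.52) and in 1 of 496 gene body peaks (0.202%). In peaks over 50 kb from the listed start site they were in 0 of 309, which by the limit of 3 counts allows a share of up to 0.971% (exact interval up to 1.19%). In intergenic peaks with CLK they were in 0 of 49, which allows up to 6.12% (exact interval up to 7.25%). Of all 1578 BMAL1 peaks 30 held them (1.90%). The 19 peaks were listed for 16 genes on 9 chromosomes, had a median score of 70.96 against 57.06 for the other 321, and held 7 to 15 CpG (median 10) against a median of 3. Only 1 of them, the Olfr1423 peak with a score of 107.2 printed above, also held an E-box. The nearest GENCODE start site was that of a small RNA gene for several of them, mostly at a distance of kilobases. It was U1 for both Fcgr4 peaks (5989 and 10670 bp), Hfe2 (12295 bp) and Shf (7604 bp), 7SK for Pllp (5822 bp) and Vault for Zmat2 (85 bp). The share of such genes among the other 321 peaks was not worked out. Coordinates of tRNA genes were not used here, and the part of tRNA genes in the BMAL1 signal was not tested. Among the 7 peaks that scored at least 100 without an E-box, 2 held the B box letters and 5 held neither.

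**Figure D4:**
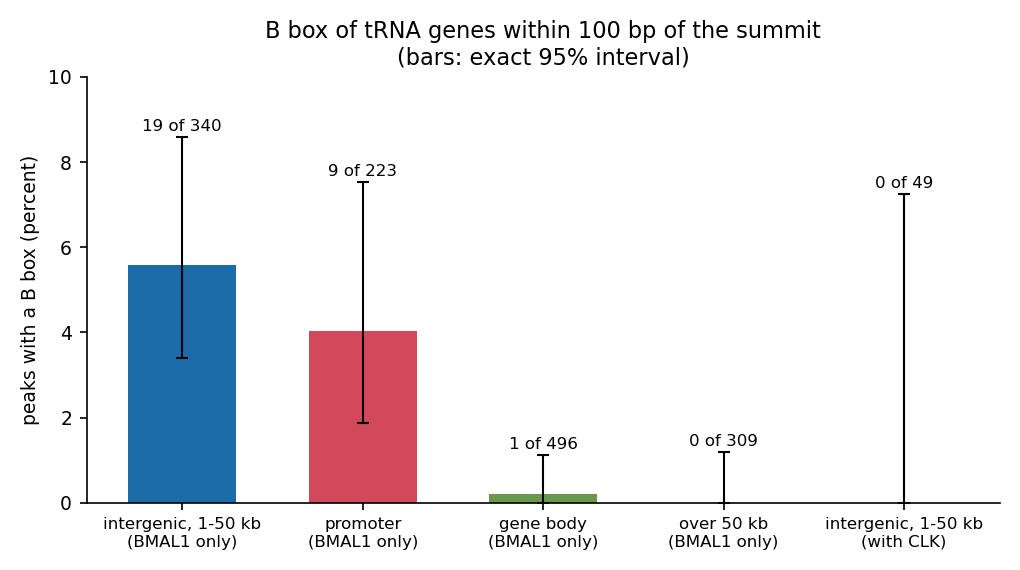
Percent of peaks with the B box letters within 100 bp of the summit (bars from 0, y axis) in the 5 classes of BMAL1 peak, with exact 95% intervals and the counts above. The letters were found in 19 of 340 BMAL1 only intergenic peaks and 9 of 223 promoter peaks, in 1 gene body peak and in none of the other classes.

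The 340 peaks were assigned to 330 genes, and no gene had more than 2. In 10 genes with 2 peaks, both peaks often lay close together. The Olfr1423 peaks were 206 bp apart (scores 54.59 and 107.2), the Gpt2 peaks 283 bp (66.99 and 66.69), the Fgd2 peaks 730 bp (119.48 and 94.86), the Aurkb peaks 3147 bp (80.63 and 64.78) and the Fcgr4 peaks 4194 bp (94.2 and 51.37). Fgd2 encodes an exchange factor for a small GTPase and was the only gene of the 10 with an E-box at both peaks. Gpt2, which encodes an alanine aminotransferase, had none at either. Both peaks held the B box letters at Aurkb (a mitotic kinase), Fcgr4 (an Fc receptor of myeloid cells) and Olfr1423 (an olfactory receptor). At Azin1 the peak 49295 bp upstream scored 129.96 with an E-box and that 36985 bp upstream scored 54.16 without one. The remaining pairs, at Adamts3, Kcnmb2, Kcnh8 and Grinl1a, scored between 51.09 and 61.12 and were 11049 to 62144 bp apart, and of these 8 peaks only 1, at Adamts3, had an E-box. Peaks of one gene share a locus and are not independent.

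Clock genes took about the same small share of these peaks as of all BMAL1 only peaks. Of a list of 39 clock and clock output genes, 2 had a BMAL1 only intergenic peak within 50 kb (0.588% of the 340 peaks, beside 10 peaks or 0.731% of all 1368 BMAL1 only peaks). Bhlhe40, a repressor that competes for E-boxes, had a peak 7857 bp from its start site and beyond its end, with a score of 70.16, 39 tags and no E-box. Ccrn4l, which encodes the deadenylase-related protein nocturnin, had a peak 22608 bp upstream with a score of 52.69, 33 tags and an E-box 17.5 bp from the summit. 

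Peaks near lipid genes ran from rank 6 to rank 192 of the 340 by score. Of the list of lipid and cholesterol metabolism, 5 peaks were in the class (1.47%, interval 0.479 to 3.40, beside 0.877% of all BMAL1 only peaks), with a median score of 103.94 against 57.22 for all 340, and 3 had an E-box. Thrsp led them, as given above. Also in the list were Fads2, a fatty acid desaturase (score 96.07, with an E-box), Pnpla3, a lipid droplet protein (103.94, without), and Scd2, another desaturase (55.55, without). 

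The remaining lists had 6 peaks or fewer each. For xenobiotic and bile acid metabolism there were none, with an exact interval up to 1.08%. That interval includes the share among all BMAL1 only peaks (0.585%, 8 peaks), so no depletion is shown. Signalling attenuators and stress genes had 6 (1.76%, beside 1.1% of all BMAL1 only peaks), from Rgs16 and the small heat shock protein gene Hspb8 (score 90.54, 32532 bp from its start, with an E-box) down to Hsp90aa1 (51.09). Solute carriers had 4, led by Slc7a10 and by Slc38a3, a glutamine transporter (82.01, 1458 bp upstream, no E-box), where 2.12% of all BMAL1 only peaks and 1.18% of these fell in that list. The ubiquitin system had 4 (1.18%, beside 1.54% of all BMAL1 only peaks), led by Usp36 and by Trim55 (97.83), a peak that holds the B box letters. In GENCODE both of these lay near a start site of another gene, at 102 bp from Cyth1 for Usp36 and 287 bp from 1700064H15Rik for Trim55. Plasma protein genes had 2 (0.588%, beside 0.219%), namely Serping1, the C1 inhibitor (104.94, no E-box), and Proz, the vitamin K-dependent protein Z (76.89, no E-box). The list of growth and immediate early transcription factors had 2 (0.588%, beside 0.804%), among them Nfe2l2, the antioxidant regulator NRF2 (59.45, 46457 bp upstream, with an E-box). Nuclear receptors had Rxra, the shared partner of many receptors (51.43, no E-box), where 13 peaks among all BMAL1 only peaks were near such a gene, and the glucose and insulin list, with 12 peaks among all BMAL1 only peaks, had Ptpn1, a phosphatase of the insulin receptor (58.73, no E-box). Of the 27 peaks in any list, 8 had an E-box. 

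The rule left out every peak that overlapped a CLK peak. The smallest gap between a BMAL1 only intergenic peak and a CLK peak was 2317 bp, and the median gap was 746098 bp. In 12 of the 340 (3.53%, interval 1.84 to 6.08) a CLK peak lay within 10 kb. Among the other BMAL1 only peaks this held for 6 of 223 promoter peaks (2.69%), 8 of 496 gene body peaks (1.61%) and 4 of 309 peaks over 50 kb from the listed start site (1.29%). The intervals of these shares overlap. The nearest of the 12 was at Thrsp, followed by Rcc2 (3063 bp), Zfp36 (3473 bp), Slc38a3 (3690 bp) and Ric8b (3994 bp), and Bhlhe40 followed at 8410 bp. Rcc2, Zfp36 and Ric8b were named after their values were seen. For 6 of the 330 genes the table also lists a peak of CLK and BMAL1 together, namely Usp36, Rps6ka1, Tsc22d3, Eepd1, Inmt and Odc1. None of the 6 intergenic peaks near them had an E-box, beside 20% of all 340, and 6 peaks are too few to tell these shares apart. A further BMAL1 only peak was listed for 22 of the 330 genes and a CLK only peak for 12, counts given with no comparison to the other classes.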

How the data were processed

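ChIP-seq libraries for BMAL1, CLK and Input (1 each, 36 nt reads, 15 PCR cycles) were made by the authors from one liver extract, and the submitters' processing notes name CASAVA 1.6 and Bowtie. Reads with a single position in mm9 were kept. Peaks were called with MACS for each ChIP library against Input (p-value cutoff 1e-05, band width 80; the MACS version is not given in the sources used here). The deposited count is the number of tags in a peak. The deposited score is the negative log10 of the p-value multiplied by 10, the deposited fold enrichment is a ratio to the local Input background, and the deposited FDR is a percent. The authors' table gives the class and gene of each peak.

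Here, peaks were joined by position, and upstream or downstream was worked out from the strand of the listed transcript. Motifs were searched on both strands within 100 bp of the summit and from 400 to 500 bp on either side, in NCBIM37, whose chromosome names and lengths fit the peaks. Features at the summit came from GENCODE M1. Differences in shares were tested by Fisher's exact test (two-sided, adjusted by Benjamini-Hochberg over the 4 classes) and by an exact McNemar test, with the contrasts by distance and by score unadjusted (scipy 1.17.1), with Clopper-Pearson 95% intervals for shares and Newcombe intervals for differences. The search and the tests were tested on simulated data. BMAL1 tags numbered 28920754 in all and 25217144 after removal of duplicates.

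The members, the 10 gene lists, the motifs and the tests were chosen with earlier results of these data known. Named peaks are the 12 of highest score, the 3 of highest fold enrichment, those of clock genes, those of genes with 2 peaks, up to 2 of highest score per other list and those beside each distance limit. Other names were chosen after their values were seen, and a few items that this rule names are not reported here. No sequence from mouse chromosome 18 is shown. Alternatives changed the window, its centre, the thresholds, the mismatch, the flank and the annotation.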

Additional observations from a re-analysis of the deposited data

How the results depend on the processing

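The number of peaks in the class was 340 and lay between 323 and 439 for other distance limits, for the summit in place of the centre and for the authors' own location column, except that an upper limit of 20000 bp gave 189. The E-box share of 20% became 73.1% with a score of at least 100, 33.1% with an FDR of at most 5%, 70.0% with 1 mismatch and 15.6% with scores below 100, the last added after the data were seen. The excess of summit over flank passed in every alternative, with the flank from 800 to 900 bp included. The difference from gene body peaks, small in the first place, changed sign to 1.26 points in a 50 bp window, 18.5 at a score of at least 100, 3.55 at an FDR of at most 5%, 0.242 with 1 mismatch and 0.266 without B box peaks (added after the data were seen), and passed the test in none of the alternatives. With a score of at least 100, the difference from promoter peaks reversed to 11.9 points and that from intergenic peaks with CLK to 15.9 points, and that from peaks over 50 kb away was 23.1 points and no longer passed (adjusted p = 0.44 by Fisher's exact test). That alternative leaves 26, 49, 28 and 6 peaks. In all other alternatives these 3 differences kept their direction and passed. The contrast at 10 kb was 10.6 points and passed among scores below 100, and did not pass in the alternatives chosen earlier. The contrast by score kept its direction and passed in each. No paired analysis was possible because each group holds 1 library. With no replicate, the precision rests on the number of peaks, and 58.2% of the class scored below 60, near the limit of detection.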
